A study of Homo sapiens with 12 samples.

Results

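OCI-AML3 is an established cell line from a human acute myeloid leukaemia, and the genes of the Rab family of small GTPases were described in it after 24 h of drug treatment. Members were chosen by symbol and by measured level: they are the rows of the deposited count table whose symbol is RAB followed by a number and at most 1 letter, with a mean raw count of at least 10 over the 12 libraries. Of 54628 symbols in the table, 64 matched this pattern and 50 reached the minimum. RAB3B, with a mean count of 10.8, was the member closest above the minimum, and RAB41, with 6.83, was the symbol closest below it. The other 13 symbols below it were RAB17, RAB19, RAB1C, RAB25, RAB36, RAB38, RAB39B, RAB3C, RAB40A, RAB4B, RAB6C, RAB6D and RAB9B. RAB19, RAB3C and RAB4B had no count in any library. In GENCODE, 36.8% of the RAB4B exon bases are also exons of MIA-RAB4B or RAB4B-EGLN2 on the same strand. Whether RAB4B RNA was absent or its reads were not assigned was not tested. All 50 members also passed the filter on low counts used for the tests.

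Rab proteins are molecular switches on membranes. In the GTP-bound state, set by guanine nucleotide exchange factors, a Rab recruits effectors that form, move, tether or fuse vesicles, and GTPase activating proteins of the TBC family return it to the GDP-bound state. Each compartment carries its own Rab proteins, so the family marks the routes of secretion, endocytosis, recycling and lysosomal delivery, and in myeloid cells it serves granule release and the handling of phagosomes.

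Polyadenylated RNA was sequenced as paired ends in 4 groups of 3 libraries. Comb cells received both drugs, ERKi cells an inhibitor of the kinases ERK1 and ERK2 (compound 27 in the labels), ABT199 cells venetoclax, an inhibitor of the survival protein BCL2, and DMSO cells the solvent. The series asks how ERK inhibition overcomes resistance to venetoclax, and the RNA levels given here measure neither Rab protein nor vesicle traffic. Whether the replicates are separate cultures is not stated in the labels. Each p-value therefore reflects the scatter among the sequenced samples alone, part of which may be technical.

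The libraries held 19199296 to 21275065 counts. The first DMSO library differed from its 2 replicates by more than sampling noise and by more than other replicates did, with chi-square values over genes, divided by their degrees of freedom, of 17.9 and 16.9 where all other replicate pairs had 2.34 to 5.52. Of 12 myeloid markers, 11 had a mean of at least 1 CPM (counts per 1e+06 counts of the scaled library), and no T cell, B cell, erythroid or epithelial marker did. CD3D, CD3G, MS4A1, HBB and EPCAM had no count in any library. The summed CPM of the myeloid list ranged from 6422 to 6666 in Comb, 5084 to 5269 in ERKi, 1556 to 1591 in ABT199 and 1631 to 1677 in DMSO libraries. Of 5 fibroblast markers, COL1A1 and COL1A2 reached a mean of 1 CPM, and the summed CPM of the list ranged from 1.15 to 1.57 in Comb, 9.33 to 24.0 in ERKi, 12.3 to 23.6 in ABT199 and 6.04 to 33.9 in DMSO libraries. The part of these marker shifts in the Rab results was not tested.

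The 50 genes together took 2607 ± 61.4 CPM in Comb, 2671 ± 65.4 CPM in ERKi, 2886 ± 38.0 CPM in ABT199 and 2836 ± 43.0 CPM in DMSO libraries (SD, n = 3 each). All Comb and ERKi libraries lay below all ABT199 and DMSO libraries in this sum. For ERKi this separation depends on the library scaling, with scaling factors of 1.053 to 1.059 in ERKi and 0.9816 to 0.9997 in DMSO libraries. Before scaling, ERKi replicate 2 held 59432 Rab counts of 20577870 in total, and DMSO replicate 3 held 58902 of 21110646. Per kilobase of exon, RAB7A, the Rab of late endosomes and lysosomes, had the highest mean level over all libraries at 109 CPM per kb. RAB1B of the early secretory pathway followed with 55.7, RAB5C of early endosomes with 54.9 and RAB10 of plasma membrane delivery with 52.3 CPM per kb. At the other end RAB3B, a Rab of regulated exocytosis, had 0.041 and RAB30, a Golgi Rab, 0.084 CPM per kb. The plot of levels shows that the order from high to low was set mostly by differences between genes and less by treatment.

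**Figure D1:**
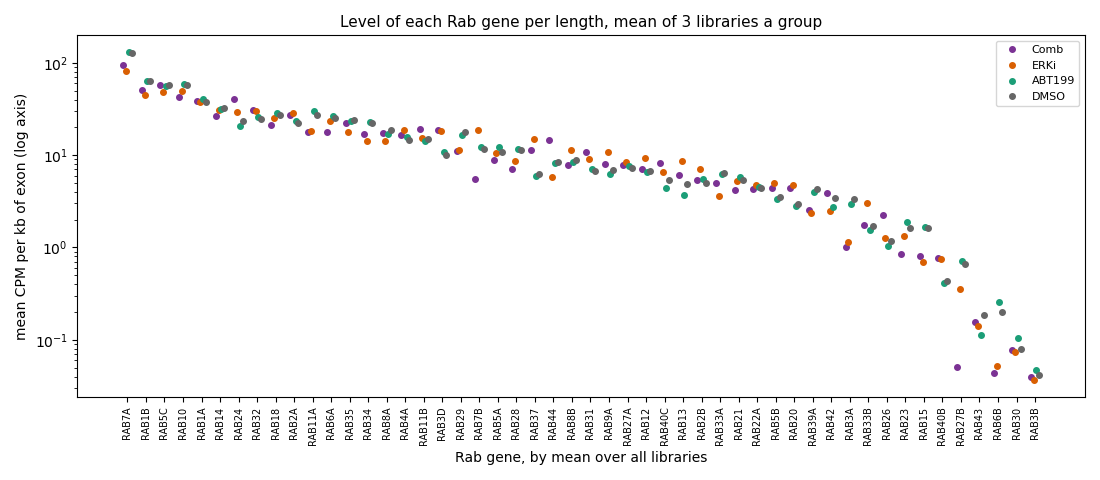
Mean level of each Rab gene in each group of 3 libraries, in CPM per kilobase of exon on a log axis, with genes ordered by their mean over all libraries. RAB7A stands highest with a mean of 109 CPM per kb over all libraries and RAB3B lowest with 0.041, and RAB27B has the widest gap between Comb and DMSO.

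ERKi against DMSO asks what ERK inhibition alone does to the family, and Rab genes moved in both directions. At an adjusted p under 0.05 in edgeR's quasi-likelihood test, 19 of the 50 rose and 18 fell, so that 74% were called, against 69.7% of all 15173 genes tested (34.5% higher and 35.2% lower). The share called among Rab genes was thus near that of all genes. The median log2 fold change was -0.05 for the members and 0.01 for all genes. RAB37 rose by at least 2-fold, and RAB3A, RAB15 and RAB6B fell by at least 2-fold, where 13.7% of all genes rose and 10.6% fell that far. In bulk RNA, fewer cells with a transcript and less transcript per cell cannot be told apart. Without DMSO replicate 1 the count of lower genes was 23, because RAB6A, RAB14, RAB18, RAB21 and RAB23 then passed the threshold as well, with log2 fold changes of -0.15, -0.12, -0.12, -0.12 and -0.40 and edgeR adjusted p values of 0.00823, 0.00966, 0.0112, 0.0450 and 0.0417.

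Comb against DMSO gave 16 genes higher and 19 lower. This was 70% of the members, against 63.8% of all genes (30.4% higher and 33.4% lower). No member rose by 2-fold, which 10.1% of all genes did, and RAB27B, RAB6B, RAB3A, RAB7B and RAB15 fell by 2-fold or more, as 6.85% of all genes did. The lowest log2 fold change was -3.65, for RAB27B, and the highest 0.94, for RAB26, a Rab of secretory granules.

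ABT199 against DMSO gave no called member by edgeR, DESeq2 or limma-voom, while 0.402% of all genes were called by edgeR (0.0198% higher and 0.382% lower). At an unadjusted p under 0.05 there were 7 of 50 (14%), against 9.11% of all genes: RAB5A, RAB8A, RAB11A, RAB13, RAB24, RAB40C and RAB42. The ABT199 and DMSO libraries did not overlap for 12 of 50 members, against 13.2% of all genes. RAB13 came nearest, with a log2 fold change of -0.37 (95% interval -0.54 to -0.20) and an edgeR adjusted p of 0.0637, and it passed the threshold at 0.0476 when genes were kept by a CPM of 1 in 3 libraries.

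Comb against ERKi, the comparison of adding venetoclax to the ERK inhibitor, gave 14 genes higher and 19 lower. These made 66% of the members, against 50.9% of all genes (26.5% higher and 24.3% lower). The median size of the log2 fold change, without its sign, was 0.25 for the members and 0.3 for all genes. Comb against ABT199 gave 16 higher and 19 lower, 70% of the members against 66.2% of all genes (32.1% higher and 34.2% lower). ERKi against DMSO and Comb against ABT199 share no library and both add ERKi. Of the genes higher in each, 12 were shared, 63.2% of the 19 and 75.0% of the 16. Of the genes lower in each, 12 were shared, 66.7% of the 18 and 63.2% of the 19. The matching overlap over all genes was not counted, so whether these shares are particular to Rab genes was not tested. RAB7B rose in ERKi against DMSO and fell in Comb against ABT199, whereas RAB42 and RAB44 fell in ERKi against DMSO and rose in Comb against ABT199. In the plot of log2 fold changes against DMSO, RAB7B and RAB44 lie on opposite sides of 0 in the Comb and ERKi panels.

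**Figure D2:**
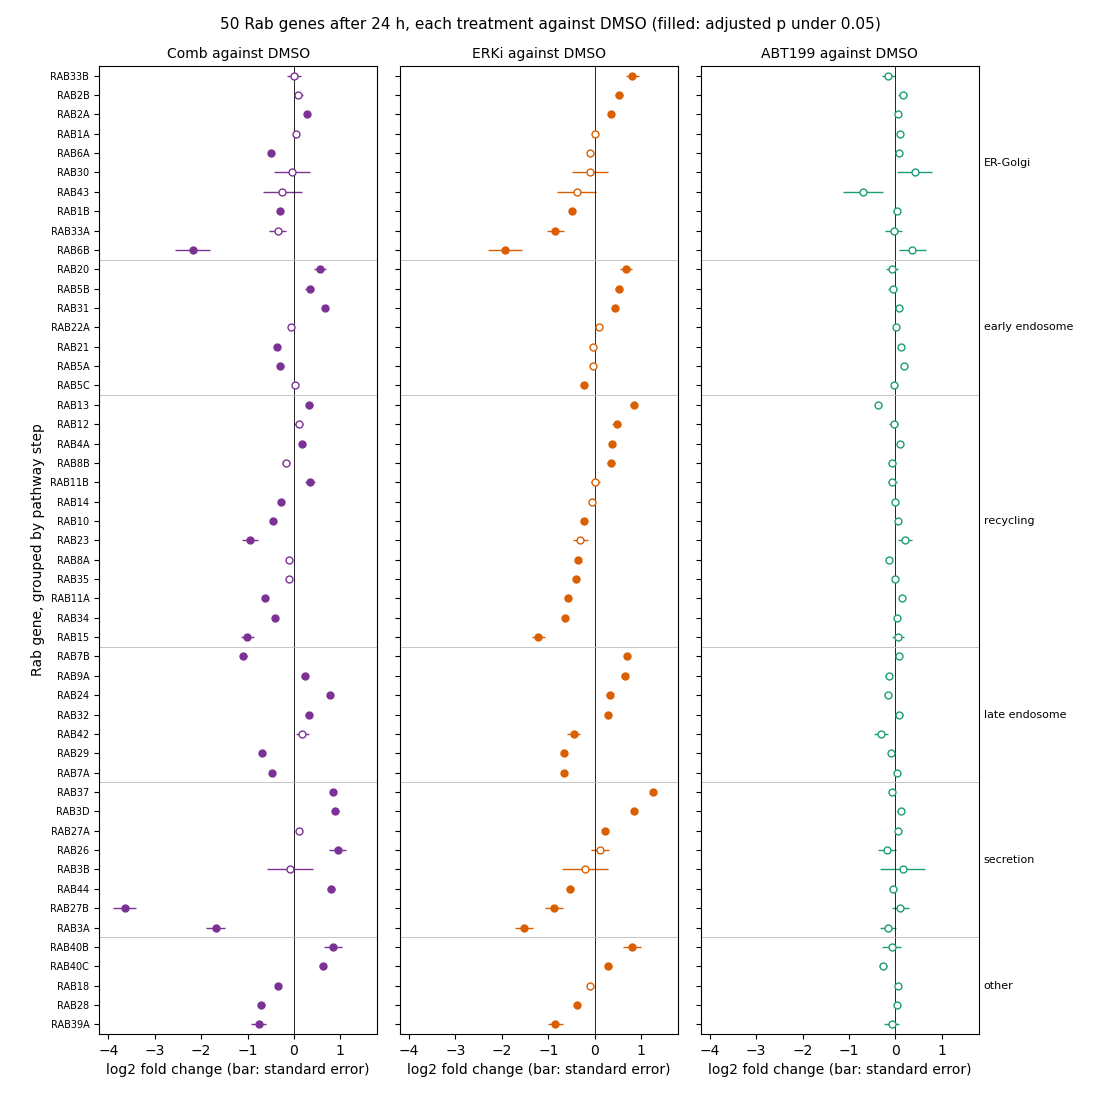
Log2 fold change of each of the 50 Rab genes in Comb, ERKi and ABT199 libraries (panels from left to right), each against DMSO, with standard errors as bars and filled points where the adjusted p was under 0.05. RAB27B reaches -3.65 in Comb, RAB7B lies at -1.09 in Comb and at 0.70 in ERKi, and no point is filled in the ABT199 panel.

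Among the 8 Rab genes of regulated secretion, 3 rose and 3 fell with ERKi against DMSO, and 4 rose and 2 fell with Comb. That is 75% called in each, against 69.7% of all genes with ERKi and 63.8% with Comb. RAB27A and RAB27B are close paralogs that dock and release lysosome-related organelles, secretory granules and exosomes. Because RAB27B had the lowest log2 fold change of the members in Comb against DMSO and RAB27A was not called there, the 300 bases around each RefSeq start site (250 before it and 50 after it, GRCh38.p14) are shown for comparison. They lie at chr18:54717607-54717906, plus strand, and chr15:55319074-55319373, minus strand. Capitals mark a match to the ETS motif CCGGAAGT, which the ETS factors downstream of ERK bind, sought on both strands.
RAB27B: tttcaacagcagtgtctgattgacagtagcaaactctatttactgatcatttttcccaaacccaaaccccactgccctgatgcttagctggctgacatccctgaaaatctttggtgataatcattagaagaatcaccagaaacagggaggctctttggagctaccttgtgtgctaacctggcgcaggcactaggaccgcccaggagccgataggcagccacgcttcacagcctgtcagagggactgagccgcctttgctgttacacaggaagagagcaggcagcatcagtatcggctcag
RAB27A: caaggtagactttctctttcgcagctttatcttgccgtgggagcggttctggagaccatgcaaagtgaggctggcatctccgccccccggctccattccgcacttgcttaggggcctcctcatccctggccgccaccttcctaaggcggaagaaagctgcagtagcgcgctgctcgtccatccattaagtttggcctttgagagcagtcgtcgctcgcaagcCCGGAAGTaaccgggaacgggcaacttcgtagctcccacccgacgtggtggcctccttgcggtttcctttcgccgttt
The RAB27A promoter holds this motif 28 bases before the start site, and the RAB27B window holds none of the 5 motifs searched. The ETS letters were in 3 of the 40 member promoters in the table (RAB11A, RAB24 and RAB27A, 7.5%), in 4.4% of all 27305 promoters and in 8.7% of those of tested genes. A match in a window is a description and was not related to the changes.

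RAB27B (chromosome 18, 54717857 to 54895516, plus strand) had 0.56, 0.38 and 0.21 CPM in Comb libraries and 2.56, 2.54 and 2.84 CPM in ERKi libraries, against 5.34, 5.58 and 4.83 CPM in ABT199 and 4.78, 5.75 and 4.13 CPM in DMSO libraries. All Comb libraries lay below all ERKi libraries, and these below all ABT199 and DMSO libraries, which overlapped. The Comb values rest on 11, 7 and 4 counts. RAB27B fell by 3.65 on the log2 scale in Comb against DMSO (SE 0.254, edgeR adjusted p = 2.05e-09), a level 12.6-fold lower, and by 0.88 in ERKi against DMSO (SE 0.190, edgeR adjusted p = 0.000563). In Comb against ERKi it fell by 2.77 on the log2 scale (SE 0.266, edgeR adjusted p = 3.9e-07), with a 95% interval of -3.33 to -2.20. RAB27A had 44.0, 42.7 and 46.4 CPM in Comb, 45.0, 49.9 and 48.1 CPM in ERKi, 41.0, 43.4 and 43.0 CPM in ABT199, and 41.4, 41.4 and 40.2 CPM in DMSO libraries. It rose in ERKi against DMSO by 0.22 on the log2 scale (SE 0.055, edgeR adjusted p = 0.00198) and was not called in Comb against DMSO (95% interval -0.002 to 0.23). In Comb against DMSO RAB27A was called as higher with RLE size factors (0.13, edgeR adjusted p = 0.0484) and with a filter of CPM 1 in 3 libraries (0.13, edgeR adjusted p = 0.0464). Per kilobase of exon, RAB27B was 0.652 ± 0.31% of the RAB27A and RAB27B level in Comb, 4.02 ± 0.29% in ERKi, 8.53 ± 0.62% in ABT199 and 8.23 ± 1.2% in DMSO libraries (SD, n = 3 each). The summed fibroblast markers were also lowest in Comb libraries, and their part in the RAB27B value was not tested.

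RAB44, a large Rab with additional domains known from mast cells and bone marrow of mice, fell in ERKi and rose in Comb, each against DMSO. It had 62.0, 63.7 and 61.3 CPM in Comb and 24.4, 23.1 and 27.3 CPM in ERKi libraries, against 34.6, 31.1 and 38.8 CPM in ABT199 and 41.0, 33.7 and 33.4 CPM in DMSO libraries. Every Comb library was above, and every ERKi library below, all ABT199 and DMSO libraries. The log2 fold change was 0.79 in Comb against DMSO (SE 0.087, edgeR adjusted p = 5.55e-07), -0.53 in ERKi against DMSO (SE 0.091, edgeR adjusted p = 6.36e-05) and 1.32 in Comb against ERKi (SE 0.089, edgeR adjusted p = 7.46e-09).

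RAB37, a Rab of mast cell secretory granules, had 56.6, 56.0 and 59.8 CPM in Comb and 73.5, 79.3 and 76.9 CPM in ERKi libraries, against 30.5, 30.5 and 30.2 CPM in ABT199 and 36.0, 29.1 and 30.8 CPM in DMSO libraries. It was thus highest in ERKi, intermediate in Comb, and lower with overlap in the other groups. It rose by 1.26 on the log2 scale in ERKi against DMSO (SE 0.066, edgeR adjusted p = 3.15e-11), or 2.40-fold, and by 0.85 in Comb against DMSO (SE 0.067, edgeR adjusted p = 1.01e-08). In Comb against ERKi it fell by 0.41 (SE 0.064, edgeR adjusted p = 5.08e-05).

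RAB3A and RAB3D, paralogs of regulated exocytosis known from synaptic vesicles and from exocrine and mast cell granules, moved in opposite directions with ERKi. RAB3A had 1.82, 1.52 and 2.25 CPM in Comb and 2.23, 1.99 and 2.10 CPM in ERKi libraries, against 5.84, 5.07 and 5.23 CPM in ABT199 and 7.54, 5.98 and 4.55 CPM in DMSO libraries. RAB3D had 76.2, 89.7 and 81.9 CPM in Comb and 76.0, 86.5 and 78.0 CPM in ERKi libraries, against 50.6, 48.9 and 45.5 CPM in ABT199 and 40.7, 46.3 and 46.8 CPM in DMSO libraries. For both genes the Comb and ERKi libraries overlapped each other and lay apart from the ABT199 and DMSO libraries. RAB3A fell by 1.69 on the log2 scale in Comb (SE 0.201, edgeR adjusted p = 1.45e-06) and by 1.51 in ERKi (SE 0.196, edgeR adjusted p = 2.83e-06), each against DMSO. RAB3D rose by 0.89 in Comb (SE 0.074, edgeR adjusted p = 1.77e-08) and by 0.85 in ERKi (SE 0.073, edgeR adjusted p = 2.12e-08), each against DMSO. Comb against ERKi was called for neither, with 95% intervals of -0.63 to 0.29 for RAB3A and -0.11 to 0.19 for RAB3D. RAB26 rose in Comb against DMSO (0.94) and in Comb against ERKi (0.84) and had a log2 fold change of 0.10 that was not called in ERKi against DMSO. RAB3B was called in no comparison.

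**Figure D3:**
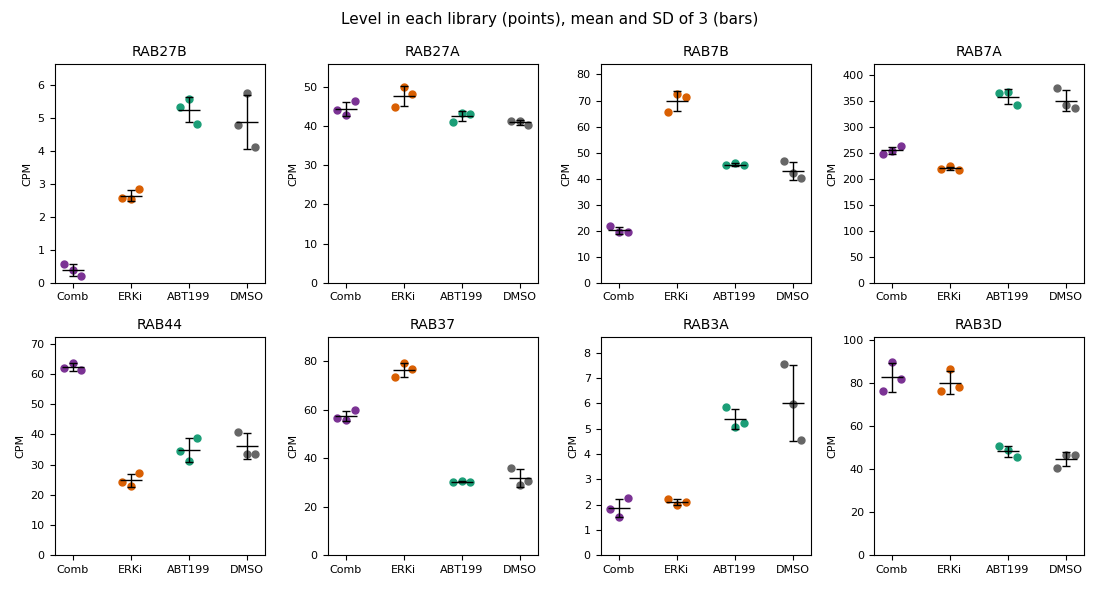
Level of 8 Rab genes of secretion and the late endosome in CPM, each library a point, with the mean and SD of 3 libraries as bars and Comb, ERKi, ABT199 and DMSO from left to right. RAB27B lies between 0.21 and 0.56 CPM in Comb and between 4.13 and 5.75 CPM in DMSO libraries, and RAB7B is highest in ERKi and lowest in Comb libraries.

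All 7 Rab genes of the late endosome, lysosome and lysosome-related organelles were called in ERKi against DMSO, with 4 higher and 3 lower, where 69.7% of all genes were called. RAB7B, which carries cargo from late endosomes to the Golgi and is known in monocytes for the traffic of Toll-like receptors, changed direction when venetoclax was added. It had 21.7, 19.4 and 19.5 CPM in Comb and 65.6, 72.7 and 71.2 CPM in ERKi libraries, against 45.2, 46.0 and 45.1 CPM in ABT199 and 46.8, 42.2 and 40.2 CPM in DMSO libraries. All Comb libraries were below, and all ERKi libraries above, every ABT199 and DMSO library. RAB7B (chromosome 1, 205976740 to 206003395, minus strand) fell by 1.09 on the log2 scale in Comb against DMSO (SE 0.070, edgeR adjusted p = 7.35e-10), or 2.13-fold, and rose by 0.70 in ERKi against DMSO (SE 0.063, edgeR adjusted p = 3.79e-08). In Comb against ERKi it fell by 1.79 (SE 0.068, edgeR adjusted p = 1.84e-11), or 3.45-fold. Because the gene changed sides, its promoter window (chr1:206003346-206003645, minus strand, RefSeq, GRCh38.p14) is shown in lower case throughout, since none of the 5 motifs searched was in it.
RAB7B: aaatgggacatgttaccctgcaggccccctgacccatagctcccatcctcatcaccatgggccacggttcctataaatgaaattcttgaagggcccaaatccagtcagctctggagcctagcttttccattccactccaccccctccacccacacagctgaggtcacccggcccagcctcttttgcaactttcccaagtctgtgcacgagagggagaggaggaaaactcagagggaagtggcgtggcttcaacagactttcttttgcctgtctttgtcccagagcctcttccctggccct

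RAB7A, which directs late endosomes and autophagosomes to fusion with lysosomes, had 248, 253 and 262 CPM in Comb and 219, 224 and 218 CPM in ERKi libraries, against 366, 366 and 342 CPM in ABT199 and 374, 341 and 336 CPM in DMSO libraries. All ERKi libraries lay below all Comb libraries, and these below all ABT199 and DMSO libraries. RAB7A fell by 0.46 on the log2 scale in Comb (SE 0.048, edgeR adjusted p = 2.59e-07) and by 0.67 in ERKi (SE 0.048, edgeR adjusted p = 1.62e-09), each against DMSO. Per kilobase of exon, RAB7B made up 5.54 ± 0.47% of the RAB7A and RAB7B level in Comb, 18.9 ± 0.74% in ERKi, 8.56 ± 0.27% in ABT199 and 8.30 ± 0.18% in DMSO libraries (SD, n = 3 each). The ERKi share was thus above and the Comb share below those of ABT199 and DMSO in every library.

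RAB24, an unusual Rab linked to the clearance of autophagosomes, had 84.1, 85.1 and 79.8 CPM in Comb and 60.0, 61.4 and 60.3 CPM in ERKi libraries, against 42.3, 43.4 and 43.9 CPM in ABT199 and 55.0, 47.6 and 43.1 CPM in DMSO libraries. All Comb libraries lay above all ERKi libraries and these above all DMSO libraries, while ABT199 and DMSO overlapped. It rose by 0.77 on the log2 scale in Comb (SE 0.068, edgeR adjusted p = 3.73e-08) and by 0.32 in ERKi (SE 0.068, edgeR adjusted p = 0.000544), each against DMSO, and by 0.46 in Comb against ERKi (SE 0.067, edgeR adjusted p = 3.39e-05). In GENCODE, 44.8% of its exon bases are also exons of MXD3 on the same strand, so how reads in these bases were counted is uncertain. RAB24 and RAB5A, the early endosome Rab, are shown with the matches to the E-box CACGTG, which MYC and the TFEB family of lysosomal gene regulators bind, to its extended palindromic form known as the CLEAR motif, and to the ETS motif. The windows lie at chr5:177303670-177303969, minus strand, and chr3:19946847-19947146, plus strand (RefSeq, GRCh38.p14), with E-box and ETS matches in capitals.
RAB24: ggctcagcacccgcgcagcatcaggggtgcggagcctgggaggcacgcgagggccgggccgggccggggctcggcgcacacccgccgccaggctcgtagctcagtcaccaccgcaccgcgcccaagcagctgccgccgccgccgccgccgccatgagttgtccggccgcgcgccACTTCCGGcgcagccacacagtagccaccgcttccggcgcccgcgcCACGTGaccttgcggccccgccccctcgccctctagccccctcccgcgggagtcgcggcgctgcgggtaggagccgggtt
RAB5A: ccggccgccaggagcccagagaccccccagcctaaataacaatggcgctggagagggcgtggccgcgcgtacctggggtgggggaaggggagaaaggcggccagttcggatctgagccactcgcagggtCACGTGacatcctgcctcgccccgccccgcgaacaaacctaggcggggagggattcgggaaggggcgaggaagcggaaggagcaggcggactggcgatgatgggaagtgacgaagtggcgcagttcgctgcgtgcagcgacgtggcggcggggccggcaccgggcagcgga
In RAB24 the ETS match lies 76 and the E-box 30 bases before the start site, and in RAB5A the CLEAR match, which contains an E-box, begins 123 bases before it. E-box letters were in 6 of 40 member promoters (15%: RAB4A, RAB5A, RAB21, RAB24, RAB29 and RAB31), in 7.4% of all promoters and in 10.1% of those of tested genes. The CLEAR letters were in RAB5A alone (2.5% of member promoters, 0.4% of all promoters and 0.8% of those of tested genes). The AP-1 letters TGANTCA were in RAB3B, RAB5B and RAB34 (7.5%, against 7.8% of all and 4.8% of tested genes' promoters), and the cyclic AMP response element TGACGTCA in none (2.0% of all and 3.2% of tested genes' promoters).

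RAB9A, which returns mannose 6-phosphate receptors from late endosomes to the Golgi, had a log2 fold change of 0.65 in ERKi against DMSO (edgeR adjusted p = 5.81e-07) and of 0.23 in Comb against DMSO (edgeR adjusted p = 0.0122). The Comb call was lost at 0.0508 without Comb replicate 1 (log2 fold change 0.21) and at 0.0519 without a filter on low counts (0.24). RAB32, a Rab of melanosomes and other lysosome-related organelles, rose by 0.29 in ERKi and 0.31 in Comb. RAB29, which recruits the kinase LRRK2 to membranes, fell by 0.66 in ERKi and by 0.70 in Comb, with a 95% interval of -0.16 to 0.08 for Comb against ERKi. RAB42 had 8.10, 7.75 and 9.80 CPM in Comb and 5.16, 5.36 and 6.05 CPM in ERKi, against 4.84, 6.74 and 6.71 CPM in ABT199 and 8.02, 7.35 and 7.30 CPM in DMSO libraries. It fell by 0.45 in ERKi against DMSO and rose by 0.63 in Comb against ERKi. Its rise of 0.49 in Comb against ABT199 (edgeR adjusted p = 0.00722) was lost without ABT199 replicate 1 or without Comb replicate 3, with values of 0.34 to 0.37 and edgeR adjusted p values of 0.0508 to 0.0530.

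Of the 10 Rab genes of the early secretory pathway and Golgi, 3 rose and 3 fell with ERKi, and 1 rose and 3 fell with Comb, each against DMSO. That is 60% called with ERKi, against 69.7% of all genes, and 40% with Comb, against 63.8%. RAB6A, which drives transport from the Golgi back to the endoplasmic reticulum, had 87.1, 88.8 and 87.8 CPM in Comb and 114, 121 and 110 CPM in ERKi libraries, against 134, 133 and 123 CPM in ABT199 and 116, 130.1 and 123 CPM in DMSO libraries. Comb libraries lay below all others, and ERKi libraries overlapped those of DMSO. RAB6A fell by 0.49 on the log2 scale in Comb against DMSO (SE 0.055, edgeR adjusted p = 7.63e-07) and by 0.39 in Comb against ERKi (SE 0.055, edgeR adjusted p = 2.34e-05). Some of its reads may be shared, since 14.2% of its 50-base windows also occur in transcripts of other genes. RAB6C was the gene that shared the largest number of them.

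RAB6B, the RAB6A paralog known from brain, was scarce, with 0.30, 0.27 and 0.21 CPM in Comb and 0.14, 0.46 and 0.33 CPM in ERKi libraries, against 1.45, 1.62 and 1.58 CPM in ABT199 and 1.26, 0.94 and 1.42 CPM in DMSO libraries. Every Comb and ERKi library lay below every ABT199 and DMSO library. It fell in both, with log2 fold changes against DMSO of -2.18 in Comb (SE 0.378, edgeR adjusted p = 8.74e-05) and -1.94 in ERKi (SE 0.358, edgeR adjusted p = 0.000136). The Comb libraries held 6, 5 and 4 of its counts and the ERKi libraries 3, 10 and 7, so the 95% interval of Comb against ERKi was wide, from -1.22 to 0.73.

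RAB2A, a Rab of traffic between endoplasmic reticulum and Golgi, had 149, 156 and 156 CPM in Comb and 158, 165 and 158 CPM in ERKi libraries, against 134, 131 and 130.01 CPM in ABT199 and 124, 127 and 128 CPM in DMSO libraries. All libraries with ERKi lay above all without it. It rose by 0.28 in Comb (SE 0.042, edgeR adjusted p = 1.82e-05) and by 0.34 in ERKi (SE 0.042, edgeR adjusted p = 1.53e-06), each against DMSO. Its paralog RAB2B rose by 0.52 in ERKi against DMSO and fell by 0.43 in Comb against ERKi. RAB1B fell in Comb (-0.30) and in ERKi (-0.50), each against DMSO, whereas RAB1A, which serves the same step from endoplasmic reticulum to Golgi, was called in no comparison, with a 95% interval of -0.10 to 0.10 in ERKi against DMSO. The 0.20 rise of RAB1B in Comb against ERKi was lost without ERKi replicate 1 or 3 or Comb replicate 2 or 3 (0.17 to 0.18, edgeR adjusted p of 0.0677 to 0.0835). The Golgi Rab RAB33B rose by 0.81 in ERKi against DMSO and fell by 0.81 in Comb against ERKi. Its paralog RAB33A fell by 0.85 in ERKi against DMSO and had a log2 fold change of 0.49 in Comb against ERKi, where the groups overlapped. That call was lost without ERKi replicate 1 or 2 or Comb replicate 1 or 3 (0.32 to 0.50, edgeR adjusted p of 0.0745 to 0.177). RAB30 and RAB43 were called in no comparison, and 79.3% of the exon bases of RAB43 are shared with the readthrough gene ISY1-RAB43.

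**Figure D4:**
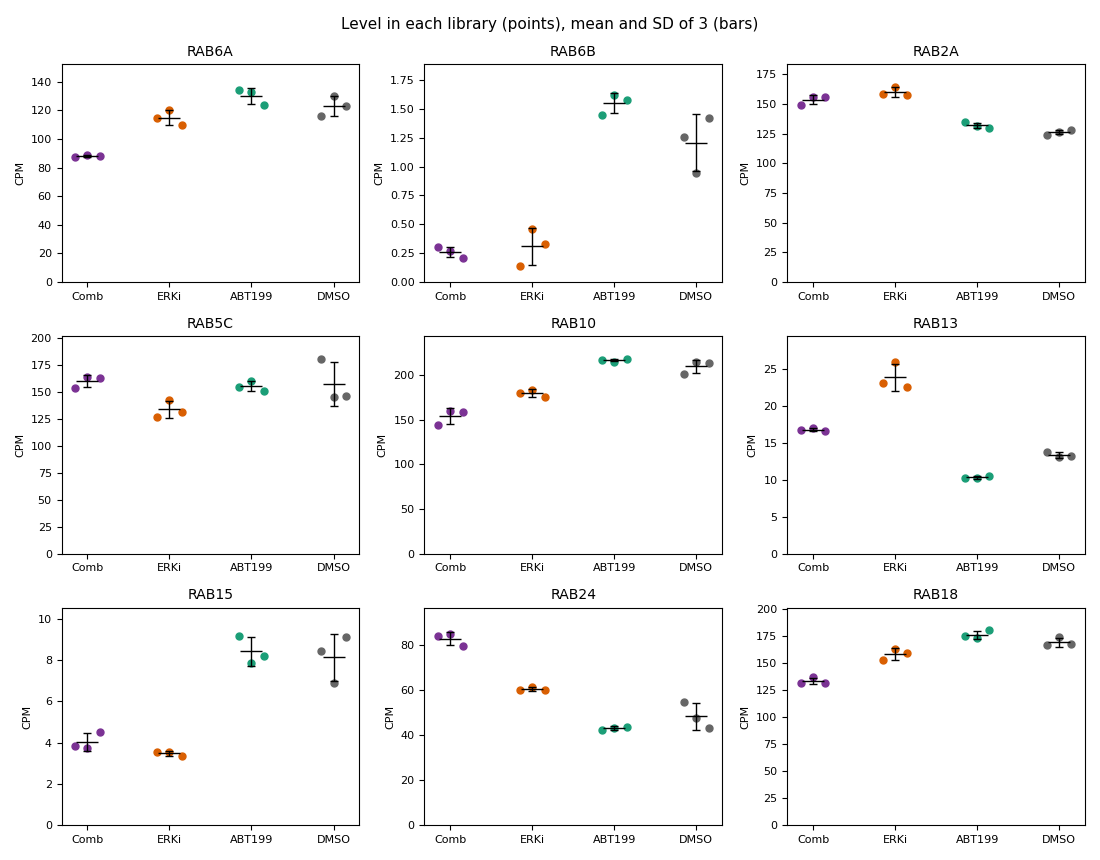
Level of 9 Rab genes of other routes in CPM, each library a point, with the mean and SD of 3 libraries as bars and Comb, ERKi, ABT199 and DMSO from left to right. RAB6A, RAB10 and RAB18 are lowest in Comb libraries, RAB24 is highest there, and RAB13 is highest in ERKi libraries.

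Of the 7 Rab genes of the early endosome and endocytic entry, 3 rose and 1 fell with ERKi, and 3 rose and 2 fell with Comb. That is 57.1% called with ERKi, against 69.7% of all genes, and 71.4% with Comb, against 63.8%. RAB5C, the early endosome paralog with the highest level, had 154, 164 and 163 CPM in Comb and 127, 143 and 132 CPM in ERKi libraries, against 154, 161 and 151 CPM in ABT199 and 181, 145 and 147 CPM in DMSO libraries. ERKi libraries were below all others, and DMSO replicate 1 was above all others. Of the RAB5C exon bases in GENCODE, 28.8% are also exons of AC099811.2 on the same strand, so some reads may be shared. RAB5C fell by 0.24 on the log2 scale in ERKi against DMSO (SE 0.072, edgeR adjusted p = 0.00773) and rose by 0.26 in Comb against ERKi (SE 0.072, edgeR adjusted p = 0.00662). Comb against DMSO had a log2 fold change of 0.02 that was not called, and without DMSO replicate 1 it was 0.13 and called (edgeR adjusted p = 0.0204). The 3 RAB5 paralogs differed, since RAB5B rose by 0.52 in ERKi and 0.35 in Comb against DMSO, and RAB5A fell by 0.29 in Comb against DMSO and was not called in ERKi against DMSO. RAB31 and RAB20, Rab genes of early endosomes and phagosomes, rose in both comparisons with DMSO. RAB31 rose by 0.66 in Comb and 0.43 in ERKi, and RAB20 by 0.57 in Comb and 0.68 in ERKi. RAB21, which takes up integrins, fell by 0.36 in Comb against DMSO and by 0.33 in Comb against ERKi. RAB22A, of early endosomes, had a log2 fold change of -0.17 in Comb against ERKi, and this call was lost without ERKi replicate 2 or 3 or Comb replicate 1 or 2 (-0.16 to -0.14, edgeR adjusted p of 0.0640 to 0.106), with DESeq2 (adjusted p = 0.0579) and without a filter on low counts (-0.14, edgeR adjusted p = 0.176).

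Of the 13 Rab genes of recycling and delivery to the plasma membrane, 4 rose and 6 fell with ERKi, and 3 rose and 6 fell with Comb. That is 76.9% called with ERKi, against 69.7% of all genes, and 69.2% with Comb, against 63.8%. RAB10, which delivers vesicles to the plasma membrane and in fat cells the glucose transporter GLUT4, had 143, 160.0 and 159 CPM in Comb and 180.0, 184 and 175 CPM in ERKi libraries, against 217, 215 and 218 CPM in ABT199 and 201, 214 and 213 CPM in DMSO libraries. The Comb libraries lay below the ERKi libraries, which lay below the others. RAB10 fell by 0.44 in Comb (SE 0.048, edgeR adjusted p = 4.95e-07) and by 0.22 in ERKi (SE 0.048, edgeR adjusted p = 0.000562), each against DMSO.

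RAB13, known for traffic to tight junctions, had 16.7, 17.0 and 16.6 CPM in Comb and 23.1, 25.96 and 22.5 CPM in ERKi libraries, against 10.2, 10.2 and 10.5 CPM in ABT199 and 13.7, 13.0 and 13.2 CPM in DMSO libraries. The 4 groups did not overlap. It rose by 0.33 in Comb (SE 0.077, edgeR adjusted p = 0.00127) and by 0.84 in ERKi (SE 0.075, edgeR adjusted p = 3.2e-08), each against DMSO, and it fell by 0.51 in Comb against ERKi (SE 0.075, edgeR adjusted p = 3.13e-05). Some reads may be shared here too, since 24.8% of the RAB13 exon bases are also exons of AL358472.6 on the same strand.

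RAB15, of endocytic recycling, had 3.85, 3.74 and 4.51 CPM in Comb and 3.55, 3.56 and 3.35 CPM in ERKi libraries, against 9.18, 7.86 and 8.19 CPM in ABT199 and 8.41, 6.88 and 9.11 CPM in DMSO libraries. All libraries with ERKi lay below all without it. It fell by 1.01 in Comb (SE 0.140, edgeR adjusted p = 8.35e-06) and by 1.22 in ERKi (SE 0.141, edgeR adjusted p = 7.62e-07), each against DMSO, and the 95% interval of Comb against ERKi ran from -0.11 to 0.52.

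The recycling endosome paralogs RAB11A and RAB11B differed. RAB11A fell by 0.63 in Comb and by 0.57 in ERKi, each against DMSO, while RAB11B had a log2 fold change of 0.35 in Comb (edgeR adjusted p = 0.00638) and of 0.02, not called, in ERKi. The Comb and DMSO libraries overlapped for RAB11B, with 42.4 CPM in Comb replicate 1 and 44.2 CPM in DMSO replicate 1. RAB11B rose by 0.33 in Comb against ERKi, and this call was lost without Comb replicate 2 or 3 (0.27 to 0.28, edgeR adjusted p of 0.0571 to 0.0658). Per kilobase, RAB11B was 51.9 ± 1.5% of the RAB11A and RAB11B level in Comb, 45.2 ± 1.1% in ERKi, 32.3 ± 2.0% in ABT199 and 35.4 ± 4.5% in DMSO libraries (SD, n = 3 each). RAB8A and RAB8B, which serve exocytosis and cilia, split under ERKi: against DMSO RAB8A fell by 0.36 and RAB8B rose by 0.35. In Comb against ERKi RAB8A rose by 0.26 and RAB8B fell by 0.53. In Comb against DMSO neither was called, with log2 fold changes of -0.10 for RAB8A and -0.17 for RAB8B. RAB8A was called without DMSO replicate 2 (-0.14, edgeR adjusted p = 0.0425), and RAB8B without DMSO replicate 1 or Comb replicate 2 (-0.30 to -0.24, edgeR adjusted p of 9.85e-05 to 0.0496).

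RAB4A of fast recycling rose by 0.37 in ERKi against DMSO. Its log2 fold change of 0.17 in Comb against DMSO was called with all libraries and lost without Comb replicate 2 or 3 (0.14 to 0.16, edgeR adjusted p of 0.0511 to 0.0668). SPHAR on the same strand shares 19.6% of the RAB4A exon bases. RAB12, which sends transferrin receptors to lysosomes, rose by 0.47 in ERKi against DMSO and fell by 0.37 in Comb against ERKi. RAB35 of fast recycling fell by 0.41 in ERKi against DMSO and rose by 0.31 in Comb against ERKi. RAB34, linked to cilia and lysosome positioning, fell by 0.40 in Comb and by 0.64 in ERKi, each against DMSO. RAB14, which links the Golgi with endosomes, fell by 0.27 in Comb against DMSO and by 0.21 in Comb against ERKi. RAB23, a regulator of Hedgehog signalling, fell by 0.95 in Comb against DMSO and by 0.64 in Comb against ERKi. BAG2 on the other strand covers 57.7% of the RAB23 exon bases, and without a known strand setting their reads cannot be told apart. The same limit holds for RAB1B and RAB8A, with 42.6% and 37.8% of their exon bases covered by genes on the other strand. It also holds for RAB3D, with 23.8%, and for RAB1A, with 22.9%.

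The other 5 members were all called in Comb against DMSO, with 2 higher and 3 lower, where 63.8% of all genes were called. RAB18, a Rab of lipid droplets and the endoplasmic reticulum, had 132, 137 and 132 CPM in Comb and 153, 163 and 159 CPM in ERKi libraries, against 175, 173 and 180.3 CPM in ABT199 and 167, 174 and 167 CPM in DMSO libraries. The Comb libraries lay below the ERKi libraries, and these below the others. RAB18 fell by 0.34 in Comb against DMSO (SE 0.043, edgeR adjusted p = 2.86e-06), and its log2 fold change of -0.10 in ERKi against DMSO was not called (SE 0.043, edgeR adjusted p = 0.0546). The ERKi change was called with limma-voom (-0.10, adjusted p = 0.0468). It was also called without DMSO replicate 1, ABT199 replicate 2 or ERKi replicate 2 (-0.12 to -0.10, edgeR adjusted p of 0.0112 to 0.0484). RAB28, known from cilia and photoreceptors, fell by 0.70 in Comb and by 0.39 in ERKi. RAB39A, of phagosomes and autophagy, fell by 0.76 in Comb and by 0.84 in ERKi. RAB40B and RAB40C, which join ubiquitin ligase complexes through a SOCS box, both rose against DMSO. RAB40B rose by 0.84 in Comb and 0.81 in ERKi, and RAB40C by 0.62 in Comb and 0.29 in ERKi.

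The interaction, how far Comb lay from the summed log2 effects of the single drugs, was called for 26 of 50 members, with 10 above and 16 below the sum. That is 52%, against 39.2% of all genes (21.3% above and 18% below). The median size of the interaction, without its sign, was 0.3 for the members and 0.34 for all genes. By mean level, of 14 members under 10 CPM, 2 were above and 2 below the sum. Of 18 members from 10 to 50 CPM these were 3 and 7, and of 18 at 50 CPM or more 5 and 7. The part of level in the share called was not tested. The interaction was -2.87 for RAB27B (SE 0.327, edgeR adjusted p = 6.89e-06), -1.87 for RAB7B (SE 0.094, edgeR adjusted p = 2.52e-09) and -0.47 for RAB6A (SE 0.077, edgeR adjusted p = 0.000202). It was 1.37 for RAB44 (SE 0.126, edgeR adjusted p = 8.37e-07) and 0.62 for RAB24 (SE 0.097, edgeR adjusted p = 0.000126). It equals Comb against ERKi minus ABT199 against DMSO, and the plot of the ABT199 effect with and without ERKi shows both. Of the 26 members, RAB11A was not called in Comb against ERKi (-0.06). RAB3A, RAB3D, RAB15 and RAB29, which changed with ERKi and with Comb, were not called, with interaction values of -0.01, -0.07, 0.16 and 0.05.

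**Figure D5:**
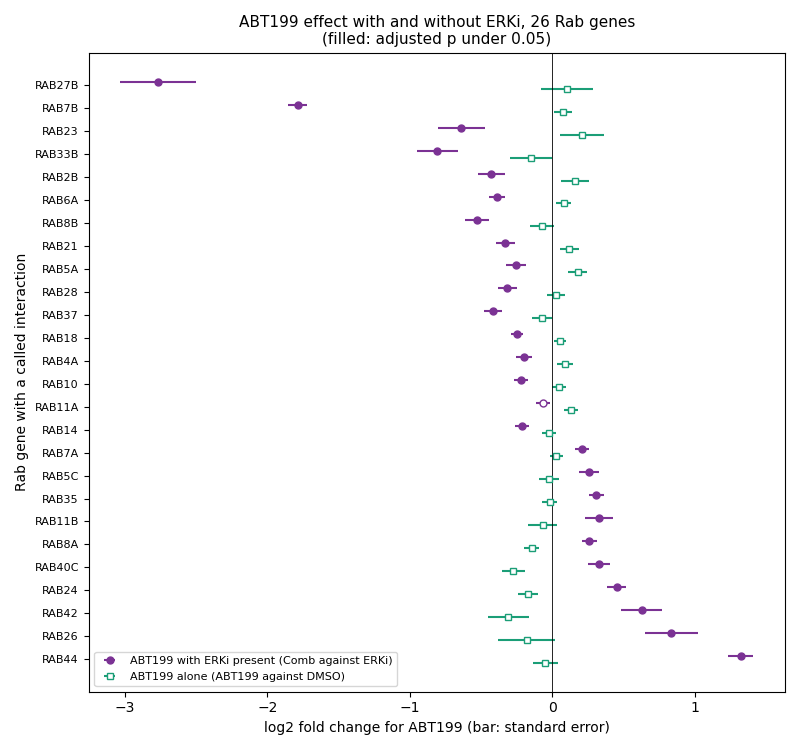
Log2 fold change of the ABT199 effect in the presence of ERKi (Comb against ERKi) and alone (ABT199 against DMSO) for the 26 Rab genes with a called interaction, with standard errors as bars and filled points where the adjusted p was under 0.05. RAB27B and RAB7B lie lowest with ERKi present, at -2.77 and -1.79, and RAB44 highest at 1.32, while the values for ABT199 alone stay between -0.31 and 0.21.

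The genes that act on Rab proteins were described by lists of their steps. In ERKi against DMSO, of 36 tested exchange factors 20 rose and 8 fell, of 33 TBC-domain activating proteins 18 rose and 5 fell, and of 42 effectors 20 rose and 10 fell. These shares of called genes (77.8%, 69.7% and 71.4%) stood near the 69.7% of all genes, while the medians of 0.26, 0.19 and 0.19 lay above the 0.01 of all genes. HPS1, a subunit of the exchange factor of RAB32 and RAB38, rose by 1.39 on the log2 scale, RIN3, an exchange factor of RAB5, by 1.28, and DENND5A, an exchange factor of RAB39, by 0.97. Among activating proteins TBC1D8 rose by 1.68 and TBC1D12 by 1.49, while TBC1D31 fell by 1.17. Among effectors RUFY3, which binds lysosomes through ARL8, rose by 1.64, RAB11FIP1, a RAB11 effector of recycling, by 1.23, and MYO5A, the myosin that carries granules of RAB27A, by 0.99.

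Of 9 exocyst subunits, which tether secretory vesicles, 6 rose in ERKi against DMSO and the other 3 were not called (66.7% called, against 69.7% of all genes and 34.5% higher). Among the 6 were EXOC1 (0.58), EXOC4 (0.42) and EXOC3 (0.37). Of the 10 HOPS and CORVET subunits, the tethers of RAB7 and RAB5 membranes, 4 rose and 3 fell (70% called), with VPS8 at 1.05, VPS41 at 0.62 and VPS39 at 0.60. Of 15 subunits of TRAPP, the exchange factor of RAB1 and RAB11, 6 rose and 3 fell (60% called), with TRAPPC6B at 0.60, TRAPPC4 at -0.79 and TRAPPC2L at -0.81. Of the 8 tested genes of Rab prenylation and extraction, 2 rose and 4 fell (75% called), including the geranylgeranyl transferase subunit RABGGTB (-0.66), PDE6D (-0.93) and the GDP dissociation inhibitor GDI2 (-0.20).

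In Comb against ERKi, where 50.9% of all genes were called, 5 of 36 exchange factors rose and 10 fell, 7 of 33 activating proteins rose and 12 fell, and 15 of 42 effectors rose and 13 fell. RIN3 had 21.2 ± 0.592 CPM in Comb and 32.9 ± 0.542 CPM in ERKi libraries (SD, n = 3 each) and fell by 0.64 on the log2 scale. VPS8 fell by 0.65, with 28.3 ± 1.24 CPM in Comb and 44.4 ± 0.540 CPM in ERKi libraries. GCC2, a tether of endosome-derived vesicles at the Golgi, fell by 0.99, with 25.7 ± 2.30 CPM in Comb and 51.0 ± 2.10 CPM in ERKi libraries. MICAL1, a RAB effector that oxidises actin, rose by 0.64, with 339.5 ± 1.86 CPM in Comb and 218 ± 2.25 CPM in ERKi libraries. TBC1D4, an activating protein of RAB10 and RAB8A, fell by 0.84 and SGSM2 rose by 0.55. DENND2D fell by 0.59, the escort protein gene CHM by 0.41, EXOC2 by 0.41, EXOC1 by 0.39, VPS41 by 0.42 and TRAPPC6B by 0.43, while RABGGTA rose by 0.61 and TRAPPC6A by 0.58. EXOC1, VPS8, VPS41, RIN3 and TRAPPC6B are also among the genes given above as higher in ERKi against DMSO, where EXOC2 rose by 0.45, and these comparisons share the ERKi libraries.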

How the data were processed

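Polyadenylated RNA of 12 OCI-AML3 libraries (4 groups of 3) was analysed, grouped by the labels. The authors deposited raw read counts per gene symbol. The submitters' processing notes name the tools HISAT2, HTSeq and DESeq2 and the build hg38. Tool versions, annotation and strand setting were not given in the sources used here. No row lacked a gene name.

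From these counts, edgeR 4.0.16 (R 4.3.3) kept genes by filterByExpr (minimum count 10, minimum total 15), scaled libraries by TMM and fitted 1 coefficient per group across the 12 libraries (8 residual degrees of freedom). TMM takes most genes as unchanged, so changes are relative to it. Yet 69.7% of tested genes were called in ERKi against DMSO and 63.8% in Comb against DMSO. The effect of this on the scaling was not tested. In each of 6 comparisons edgeR's quasi-likelihood test gave p-values, which were adjusted after Benjamini and Hochberg over 15173 genes and called under 0.05. The dispersion common to all genes corresponded to a biological variation of 0.073. CPM is the count per 1e+06 counts of the scaled library size, and levels between genes are per kilobase of GENCODE v29 exons. Positions and promoters are RefSeq's (GRCh38.p14). All 50 members matched a position and 40 a promoter. The pipeline was tested on simulated data.

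The members, role lists, machinery and marker lists were chosen with earlier results of these data known, and 1 marker is not reported here by name. Values in every library are given for members called against DMSO with a log2 fold change of at least 1 in size, for the 5 called with the lowest adjusted p in Comb against ERKi and in the interaction, and for the member of each role with the highest mean CPM, not divided by length. RAB27A and RAB42 were added after their values were seen. Of each machinery list, up to 3 called genes by adjusted p in ERKi against DMSO and up to 2 in Comb against ERKi are named. The tests were repeated leaving out each library, with a replicate block, with the compared libraries alone, with DESeq2 1.42.0, with limma-voom (limma 3.58.1), with RLE size factors, without a filter, and with a filter of CPM 1 in 3 libraries. Figures were drawn with matplotlib 3.10.9.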

Additional observations from a re-analysis of the deposited data

Results flagged for a closer look

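The effect of ABT199 differed with and without ERKi for 26 members by the interaction test (edgeR, adjusted p under 0.05), in 52% of the members against 39.2% of all genes. The median size of the interaction, without its sign, was 0.3 for the members and 0.34 for all genes. Among the Rab genes of regulated secretion the interaction on the log2 scale was -2.87 for RAB27B, -0.34 for RAB37, 1.02 for RAB26 and 1.37 for RAB44. Among those of the late endosome and lysosome it was -1.87 for RAB7B, 0.18 for RAB7A, 0.62 for RAB24 and 0.94 for RAB42. RAB7B rose with ERKi against DMSO and was lower in Comb than with either drug alone.

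In the early secretory pathway and Golgi the values were -0.66 for RAB33B, -0.59 for RAB2B and -0.47 for RAB6A. Among early endosome genes they were -0.45 for RAB21, -0.43 for RAB5A and 0.28 for RAB5C. All of the first list and RAB21 and RAB5A lay below the sum of the single effects, and RAB5C above it.

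Among the genes of recycling and surface delivery, RAB23 had -0.85, RAB8B -0.46, RAB4A -0.29, RAB10 -0.27, RAB11A -0.20 and RAB14 -0.19, while RAB8A had 0.40, RAB11B 0.39 and RAB35 0.33. The paralogs RAB8A and RAB8B, and RAB11A and RAB11B, thus lay on opposite sides. In the remaining list RAB28 had -0.34, RAB18 -0.30 and RAB40C 0.60.

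Calls of 5 of these genes were lost when any 1 of several libraries was left out. RAB7A lost its call without any of the ABT199, ERKi or Comb libraries (0.14 to 0.20, edgeR adjusted p of 0.0525 to 0.142), and RAB14 without any ABT199 or ERKi library or Comb replicate 1 or 3 (-0.20 to -0.17, 0.0505 to 0.0978). RAB11A lost its call without DMSO replicate 3, any ABT199 library, ERKi replicate 2 or 3 or Comb replicate 1 (-0.20 to -0.16, 0.0604 to 0.109). RAB5C lost it without ABT199 replicate 1 or 3, ERKi replicate 1 or 3 or Comb replicate 2 or 3 (0.24 to 0.28, 0.0724 to 0.0971). RAB11B lost it without DMSO replicate 1, ABT199 replicate 3, ERKi replicate 1 or 2 or Comb replicate 2 or 3 (0.25 to 0.39, 0.0608 to 0.105). Without a filter on low counts, calls were also lost for RAB11A, RAB14 and RAB28 (edgeR adjusted p of 0.181, 0.203 and 0.0747). The call of RAB14 was lost with RLE size factors (edgeR adjusted p = 0.0523), and that of RAB7A with a filter of CPM 1 in 3 libraries (edgeR adjusted p = 0.0546).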

How the results depend on the processing

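Over 5641 repeats of the 300 gene comparisons under the alternatives, no called log2 fold change of a member reversed, 64 lost their call, 33 gained one and 5544 kept their side of the threshold. The counts of higher and lower members ran from 19 to 20 and 18 to 23 in ERKi against DMSO, 15 to 17 and 19 to 20 in Comb against DMSO, 11 to 14 and 18 to 20 in Comb against ERKi, 15 to 17 and always 19 in Comb against ABT199, and, above and below the sum, 7 to 12 and 13 to 18 in the interaction. In ABT199 against DMSO the count lower was 1, RAB13, with a filter of CPM 1 in 3 libraries, against 0, and the count higher was 0 under every alternative run. No alternative moved the median of all genes by more than 0.032 on the log2 scale. Every alternative scales the libraries on the bulk of genes, so this small shift follows from the method and does not test the scaling. Replicate numbers did not pair the libraries: none of 18 pairs of same-numbered libraries had a correlation of deviations over 0.1 (-0.085 to 0.072), and 6 correlated best with their own number. With the replicate block, 9 instead of 10 members lay above the sum in the interaction, RAB7A being lost (edgeR adjusted p = 0.0596), and the counts of the other comparisons were the same. Members with few counts, such as RAB3B, RAB30 and RAB43, can show only large changes at this depth. Whether reads of overlapping genes such as RAB24 and MXD3 were given to either gene or left uncounted is not known.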
